A study of Mus musculus with 30 samples.

Results

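The aryl hydrocarbon receptor pathway was followed in mouse lung through 6 genes: the receptor Ahr, its partner Arnt, its repressor Ahrr, and the target genes Cyp1a1, Cyp1b1 and Tiparp. They were found by gene symbol among the array's probe sets, and they are 6 of the 18193 genes named on the array, measured by 15 of its 45037 probe sets. Whole-lung RNA of 30 C57BL/6 mice was hybridized to Affymetrix mouse expression arrays, with each animal on its own array. Adults were 16 weeks old and juveniles 21 days old. At each age, LPS+MV animals breathed aerosolised lipopolysaccharide (LPS) from E. coli over 30 min, from a volume of 20 mL that held 0.1 mg/mL, and were then ventilated for 2 h, LPS animals breathed the aerosol and then spent 2 h breathing on their own, and MV animals were ventilated for 2 h with no LPS. Mechanical ventilation (MV) used a tidal volume of 15 mL/kg, 80 breaths/min, 30% oxygen and a positive end-expiratory pressure of 2 cm H2O. Control animals were untreated and breathed spontaneously. Groups held 4 animals, except juvenile MV and juvenile LPS+MV with 3 each. The labels name no transgene or gene deletion for any group, and they do not give sex, litter or hybridization batch.

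The receptor is a transcription factor that waits in the cytosol bound to chaperones until it meets a ligand, such as a dioxin, a polycyclic hydrocarbon from smoke, or a breakdown product of tryptophan. It then moves to the nucleus, pairs with ARNT and binds a short DNA element in front of its target genes. Cyp1a1 and Cyp1b1 encode cytochrome P450 enzymes that oxidise such ligands, and the lung, where inhaled hydrocarbons arrive, is a classical site of Cyp1a1 induction. Tiparp encodes an ADP-ribosyltransferase, and Ahrr a protein related to the receptor that competes for ARNT. Both restrain the receptor that induces them.

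The DNA in front of 4 of these genes is shown because the receptor binds an element with the core GCGTG, on either strand. A match to this core does not by itself make a gene a target. The 250 bases before the start that RefSeq's mouse promoter table (build GRCm38.p6) gives for each gene are printed 5′ to 3′ along the gene, with the element in capitals as GCGTG, or as CACGC where it lies on the opposite strand.
Ahrr, chr13:74292332-74292581, minus strand: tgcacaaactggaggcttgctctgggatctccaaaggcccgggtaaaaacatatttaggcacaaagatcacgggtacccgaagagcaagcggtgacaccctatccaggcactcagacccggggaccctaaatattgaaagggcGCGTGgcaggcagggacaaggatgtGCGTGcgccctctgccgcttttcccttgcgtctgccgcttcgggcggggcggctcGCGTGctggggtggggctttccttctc
Cyp1a1, chr9:57697363-57697612, plus strand: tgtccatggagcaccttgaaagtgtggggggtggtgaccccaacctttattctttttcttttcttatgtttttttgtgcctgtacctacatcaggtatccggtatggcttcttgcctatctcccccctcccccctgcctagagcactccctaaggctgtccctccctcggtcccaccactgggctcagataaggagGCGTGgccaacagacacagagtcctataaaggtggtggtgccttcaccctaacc
Cyp1b1, chr17:79715062-79715311, minus strand: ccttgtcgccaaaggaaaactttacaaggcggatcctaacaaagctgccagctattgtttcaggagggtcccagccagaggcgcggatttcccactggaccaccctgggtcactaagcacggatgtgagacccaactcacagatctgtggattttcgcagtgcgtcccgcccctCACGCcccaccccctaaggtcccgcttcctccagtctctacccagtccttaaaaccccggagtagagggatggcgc
Tiparp, chr3:65528197-65528446, plus strand: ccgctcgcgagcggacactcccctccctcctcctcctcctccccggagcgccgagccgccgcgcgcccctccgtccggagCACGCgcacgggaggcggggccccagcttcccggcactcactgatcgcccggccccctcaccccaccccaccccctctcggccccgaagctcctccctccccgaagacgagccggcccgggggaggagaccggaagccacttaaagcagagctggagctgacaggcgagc
Ahrr held 3 elements in this window, the nearest at 27 to 23 bases before the start, and Cyp1a1 held 1 at 54 to 50 bases before it. Cyp1b1 held 1 at 76 to 72 bases and Tiparp 1 at 170 to 166 bases before the start, both on the opposite strand. For Cyp1a1 the table's start lies inside the gene's RefSeq span (chr9:57687928-57703824), so its window is not at the outermost start of the gene. The window of Arnt, not printed because it runs past another RefSeq start, held 1 as well. The element is short and common: 28.2% of 32851 mouse promoter windows of the same length held at least 1, and 2.77% held 3 or more. GCGTG is also a form of the element that hypoxia-inducible factors recognise, so a match here is a description of the letters only. Of the 6 genes, 5 were matched in the table, and Ahr was not. The array files name no genome build, so these coordinates belong to the RefSeq sequences alone.

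Levels are the deposited intensities, in arbitrary units. Array medians lay between 21.6 and 22.8, and upper quartiles between 89.1 and 111. A probe set was tested if 3 or more arrays measured it above the median of that array, and each gene is given by its brightest probe set. In this way 5 of the 6 genes were among the 13089 tested. Changes are log2 fold changes of intensity + 32 with their standard error (SE), from 1 limma model of all arrays, and adjusted p-values are Benjamini-Hochberg values over all genes tested, with a threshold of 0.05. The added 32 understates the fold change of dim genes. Each animal's lung is a mixture of cells, and fewer cells of a type and less RNA per cell cannot be told apart in these data. Markers of lung were present throughout, with sums of 34340 to 41700 for alveolar type 2 cells and 37000 to 58840 for club cells. Every array was closer to the other arrays of its group than to any other group (median Pearson r of at least 0.976 over all genes tested). On 2 arrays, juvenile MV replicate 3 and juvenile LPS+MV replicate 3, the heat shock gene Hsph1 reached 6104 and 3387, against 298 to 1613 on the other arrays. Xist, an RNA of the inactive X chromosome, was above 100 on 4 of 4 adult MV, 3 of 4 adult LPS+MV, 2 of 3 juvenile LPS+MV, 1 of 3 juvenile MV and 1 of 4 juvenile control arrays, and on none of the adult LPS, adult control and juvenile LPS arrays. Eif2s3y, a gene of the Y chromosome, measured 5.84 to 10.1 on the arrays with high Xist and 159.6 to 237.5 on all others. By both genes, the adult MV animals read as female, and the adult LPS, adult control and juvenile LPS animals as male.

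Ahrr lay at the bottom of the scale. Its only probe set measured 7.28 to 10.9 on the 30 arrays, below the array median on every array, so it was not tested and no level of it is compared. The other 5 genes differed in how much they varied among animals treated alike. Cyp1a1 had a residual standard deviation of 0.955 on the log2 scale, with rank 15 from the highest among the 13089 genes tested, where the median gene had 0.12. Tiparp had 0.219, Ahr 0.183, Cyp1b1 0.134 and Arnt 0.106.

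Of the 5 genes tested, 3 passed in adult LPS+MV against control (Tiparp and Arnt higher, Ahr lower), where 42.1% of all genes passed. In adult LPS against control 4 passed (Cyp1a1, Cyp1b1 and Tiparp higher, Ahr lower), against 36% of all genes. In adult MV 2 passed (Tiparp higher, Ahr lower), against 31.5%. Juvenile LPS+MV against control gave 2 (Tiparp higher, Ahr lower), against 31.3%, juvenile LPS gave 1 (Cyp1b1 higher), against 22.9%, and juvenile MV gave 1 (Cyp1a1 lower), against 10.9%. Between the ages, 2 passed in the controls (Cyp1b1 higher and Cyp1a1 lower in adults), where 25.2% of all genes did. With MV 2 passed (Cyp1b1 higher and Ahr lower in adults), against 23.3%, and with LPS 2 passed (Tiparp higher and Ahr lower in adults), against 16.4%. With LPS+MV limma called 0 of the 5 between the ages, against 12.2% of all genes, while 3 had an unadjusted p below 0.05. Groups that did not overlap made up 42.2% of all genes in adult LPS+MV against control, 34.6% in adult LPS and 30.5% in adult MV, and 32.3%, 22% and 19.2% in juvenile LPS+MV, LPS and MV. In juveniles they made up 26.1% for LPS+MV against LPS and 29.9% against MV, and for adult against juvenile lungs 22.1% in the controls and 30.6% with MV. For adult LPS+MV against MV the share was 21.6%. In a set of 5 genes these counts are descriptions, and the genes are taken below by role.

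**Figure D1:**
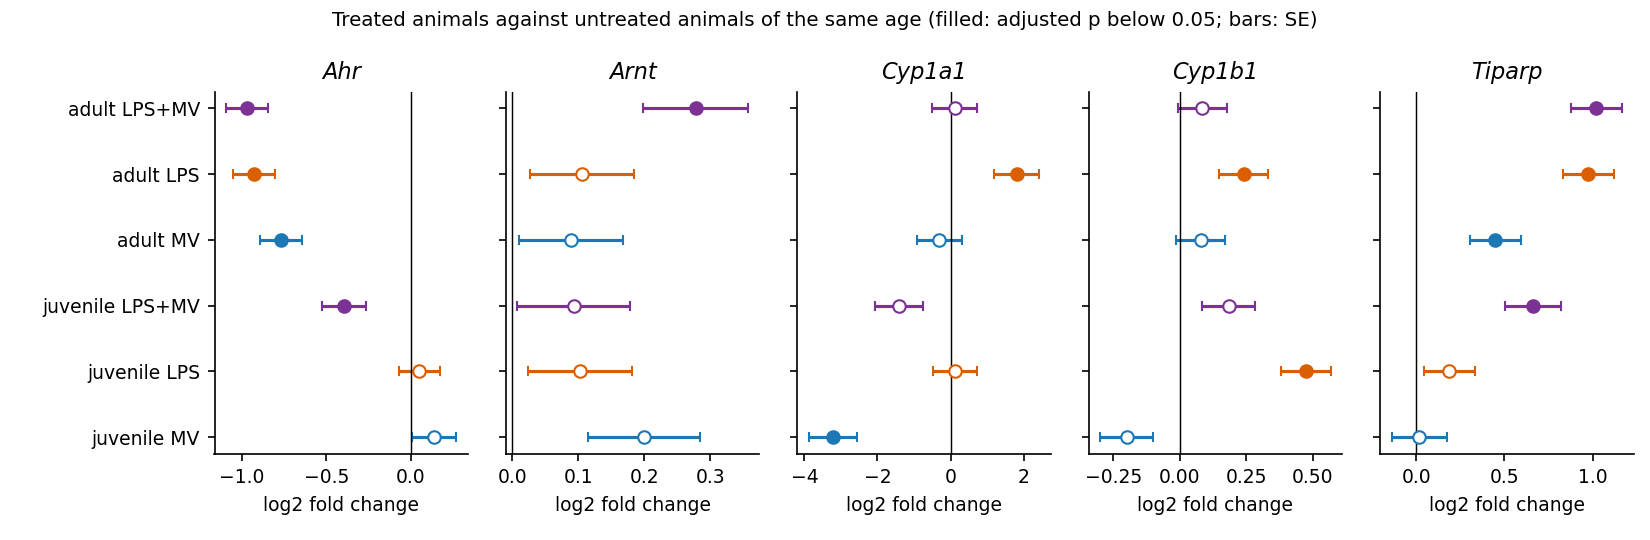
Log2 fold change of intensity + 32 (horizontal axis, a scale of its own for each gene) of Ahr, Arnt, Cyp1a1, Cyp1b1 and Tiparp in the 6 treated groups against untreated animals of the same age, with bars for the SE and filled points for adjusted p below 0.05. Ahr lies between -0.97 and -0.77 in all 3 adult treatments, and Cyp1a1 lies at -3.21 in juvenile MV and at 1.81 in adult LPS.

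Ahr transcript was lower in adults after every treatment. Its intensity was 527, 467, 479 and 642 in adult LPS+MV lungs, 548, 525, 545 and 549 in adult LPS lungs and 647, 699.6, 519.6 and 585 in adult MV lungs, against 1075, 1109, 1116.5 and 946 in adult control lungs. All 12 treated adults lay below all 4 controls, and the treated groups overlapped each other. In log2 fold changes this was -0.97 ± 0.12 (SE) with LPS+MV, -0.93 ± 0.12 with LPS and -0.77 ± 0.12 with MV, with adjusted p of 4.47e-07, 1.31e-06 and 5.17e-05. LPS+MV did not pass against LPS (-0.04 ± 0.12, adjusted p = 0.876) or against MV (-0.20 ± 0.12, adjusted p = 0.289). The interaction, by which the combined change differs from the sum of both changes, was 0.72 ± 0.17 (adjusted p = 0.0131, where 7.17% of all genes passed). High Xist was found on every adult MV array and on no adult control. With a term for it, the MV change was -0.55 (adjusted p = 0.0177) and the LPS+MV change -0.81 (adjusted p = 5.17e-05). That term is set by groups that hold both kinds of array, and neither adult MV nor adult control does. MV and high Xist therefore cannot be told apart in adult MV against control. A dim second probe set of Ahr, with a mean intensity of 39.1, passed with LPS (-0.28 ± 0.08, adjusted p = 0.0125) but not with LPS+MV (-0.15 ± 0.08, adjusted p = 0.177) or MV (-0.04 ± 0.08, adjusted p = 0.728), and its interaction was 0.17 (adjusted p = 0.372).

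In juveniles, Ahr passed against control with LPS+MV but not with either treatment by itself. It measured 764, 729.6 and 535 in juvenile LPS+MV lungs, 913, 1045, 860.2 and 884 in juvenile LPS lungs and 1007, 1155.5 and 812 in juvenile MV lungs, against 977, 979.7, 957 and 679 in juvenile control lungs. The LPS+MV group lay below the other treated groups on every array and overlapped the controls through control replicate 4. Against control the fold change was -0.39 ± 0.13 (SE, adjusted p = 0.0244) with LPS+MV, 0.05 ± 0.12 (adjusted p = 0.809) with LPS and 0.14 ± 0.13 (adjusted p = 0.565) with MV. The LPS+MV call was lost without LPS+MV replicate 3, the array with high Hsph1 (-0.24, adjusted p = 0.216), without control replicate 1, 2 or 3 (adjusted p of 0.0702, 0.0723 and 0.0597), and with a term for high Xist (-0.30, adjusted p = 0.0875). Ahr also passed in LPS+MV against LPS (-0.45 ± 0.13, adjusted p = 0.0224, where 3 of the 5 genes and 15.5% of all genes passed) and against MV (-0.53 ± 0.14, adjusted p = 0.01, where 3 of the 5 genes and 14.7% of all genes passed). Against LPS it was lost without LPS+MV replicate 3 (-0.29, adjusted p = 0.193) or LPS replicate 2 (-0.39, adjusted p = 0.0699), and with a term for high Xist (-0.30, adjusted p = 0.187). Against MV it was lost without LPS+MV replicate 3 (-0.38, adjusted p = 0.0993) or MV replicate 2 (-0.42, adjusted p = 0.0891). The dim second probe set passed in none of these 3 comparisons (adjusted p of 0.284, 0.407 and 0.132).

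On its brighter probe set, the response of Ahr differed between the ages for each treatment given by itself. The adult response minus the juvenile response was -0.98 ± 0.17 (SE) for LPS, with an adjusted p of 0.00142 where 3.7% of all genes passed, and -0.91 ± 0.18 for MV, with an adjusted p of 0.00427 where 6.15% passed. With a term for high Xist, the MV difference was -0.71 (adjusted p = 0.056). On the dim second probe set neither passed, at -0.26 for LPS (adjusted p = 0.275) and -0.13 for MV (adjusted p = 0.562), nor did adult against juvenile lungs with LPS (-0.21, adjusted p = 0.0953) or MV (-0.08, adjusted p = 0.565). For LPS+MV the difference in response was -0.01 (adjusted p = 0.978) on the dim probe set and -0.58 ± 0.18 (adjusted p = 0.0841) on the brighter one. There limma called 0 of the 5 genes, against 2.1% of all genes, with 1 at an unadjusted p below 0.05. The brighter probe set passed without adult LPS+MV replicate 4 (-0.67, adjusted p = 0.0494) or juvenile LPS+MV replicate 3 (-0.73, adjusted p = 0.0439). On this brighter probe set, untreated adults and juveniles did not pass (0.25 ± 0.12, adjusted p = 0.151). Adult lungs were below juvenile lungs with LPS (-0.73 ± 0.12, adjusted p = 0.000117) and with MV (-0.66 ± 0.13, adjusted p = 0.000568), with no overlap between the ages in either. With LPS+MV the ages overlapped and did not pass (-0.33 ± 0.13, adjusted p = 0.105). They passed without adult LPS+MV replicate 4 (-0.42, adjusted p = 0.0407) or juvenile LPS+MV replicate 3 (-0.48, adjusted p = 0.021). The dim probe set gave 0.04 (adjusted p = 0.853) for the ages with LPS+MV.

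Cell type markers also passed in the same adult comparisons, where 42.1% (LPS+MV), 36% (LPS) and 31.5% (MV) of all genes did, and their part in the Ahr result was not tested. Of 8 endothelial markers, 5 were lower in adult LPS+MV, 6 in adult LPS and 3 in adult MV against control, and the summed endothelial intensity was 6026 to 7189, 6103 to 8250 and 8163 to 9148 in those groups, against 8381 to 9569 in adult controls. Of 6 fibroblast markers, 3 were lower in adult LPS+MV, 4 in LPS and 3 in MV, and 1 was higher in LPS+MV. The summed fibroblast intensity was 7746 to 10200, 8465 to 9765 and 7565 to 10010, against 10840 to 13040 in controls. Of 6 alveolar type 1 markers, 4 were lower in each, and their sum was 20910 to 23450, 24240 to 26240 and 22060 to 24480, against 28840 to 30730 in controls. Neutrophil markers were higher in 2 of 5 with LPS+MV and in 5 of 5 with LPS, and 1 of 5 was lower with MV. Their sum was 16860 to 21540, 20410 to 32770 and 1875 to 9527, against 2542 to 22550 in controls.

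**Figure D2:**
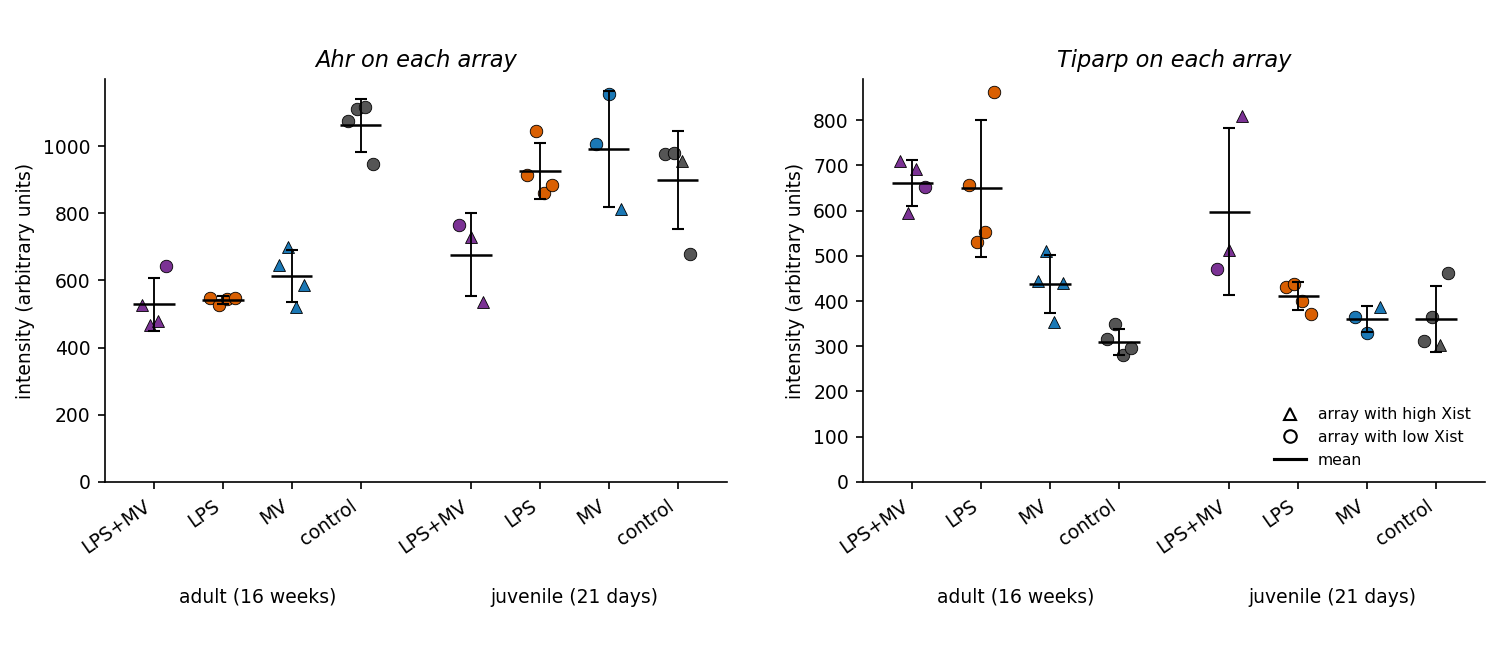
Intensity (arbitrary units, axis from 0) of Ahr and Tiparp on each array, with the group mean and bars for the standard deviation, and triangles for arrays with high Xist. Ahr lies at 467 to 699.6 in the 12 treated adults, below the 946 to 1116.5 of adult controls, and Tiparp lies at 353 to 862 in the treated adults, above the 280.4 to 348 of adult controls.

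Arnt, the partner that the receptor shares with the hypoxia-inducible factors, varied least of the 5. Its level was 231, 246, 242 and 233 in adult LPS+MV lungs, 223, 214, 196 and 198.5 in adult LPS lungs and 223, 198, 187 and 213 in adult MV lungs, against 213, 183, 173 and 195 in adult control lungs. The LPS+MV arrays lay above every other adult array. Against control this was 0.28 ± 0.08 (SE, adjusted p = 0.00547), a 1.21-fold difference, while LPS gave 0.11 ± 0.08 (adjusted p = 0.311) and MV 0.09 ± 0.08 (adjusted p = 0.413). LPS+MV did not pass against LPS (0.17 ± 0.08, adjusted p = 0.185) or MV (0.19 ± 0.08, adjusted p = 0.104). In juveniles Arnt ranged from 175 to 258 over all 14 arrays, and none of the 3 treatments passed against control. Arnt has 3 other probe sets that could be tested, and in adult LPS+MV they gave 0.02, 0.17 and 0.10, none of which passed (adjusted p of 0.859, 0.102 and 0.125). The probe set at a mean intensity of 53.0 passed in juvenile LPS+MV (0.35 ± 0.09, adjusted p = 0.00282) and juvenile MV (0.29 ± 0.09, adjusted p = 0.0339) against control, and the probe set at 170.6 passed in juvenile LPS+MV (0.19 ± 0.07, adjusted p = 0.0445). All 4 tested probe sets were on the higher side in LPS+MV at both ages, but which of them passed differed, and in juvenile LPS+MV their mean passed (0.19, adjusted p = 0.00836).

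Cyp1a1, the target most used to read receptor activity, had the widest range of the 6, at 10.9 to 2516 over the 30 arrays. In untreated lungs it was lower in adults. Adult control lungs had 93.8, 134, 59.7 and 38.5, against 1578, 2516, 353 and 279 in juvenile control lungs. Every adult lay below every juvenile, and the juveniles spread over a wider range than the adults. The fold change was -2.96 ± 0.61 (SE, adjusted p = 0.000723), or 7.77-fold lower in adults, and it passed under all 18 alternatives tried, with -3.55 to -2.42. The exact permutation test, two-sided, gave p = 0.0286, the smallest value that 4 against 4 animals allow, and an adjusted p of 0.1 over the 14 comparisons of Cyp1a1. With LPS the adults, at 228, 319, 431 and 451, also lay below the juveniles, at 858, 1257, 761 and 722, but the fold change did not pass (-1.27 ± 0.61, adjusted p = 0.172). With the 2 LPS groups alone in the fit it passed (SE 0.192, adjusted p = 0.00044).

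With LPS+MV adults had 105, 152, 29.3 and 86.5, against 161, 188 and 707 in juveniles, again with no overlap and no pass (-1.44 ± 0.66, adjusted p = 0.167). Groups that did not overlap were seen for 21.3% of all genes with LPS and for 24.2% with LPS+MV. With MV the ages overlapped (-0.05 ± 0.66, adjusted p = 0.97). Of the cell types that can express Cyp1a1, club cell markers summed to 51840 to 56130 in adult controls, against 39600 to 46310 in juvenile controls, and endothelial markers to 8381 to 9569, against 8527 to 11140. Their part in the age difference was not tested.

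**Figure D3:**
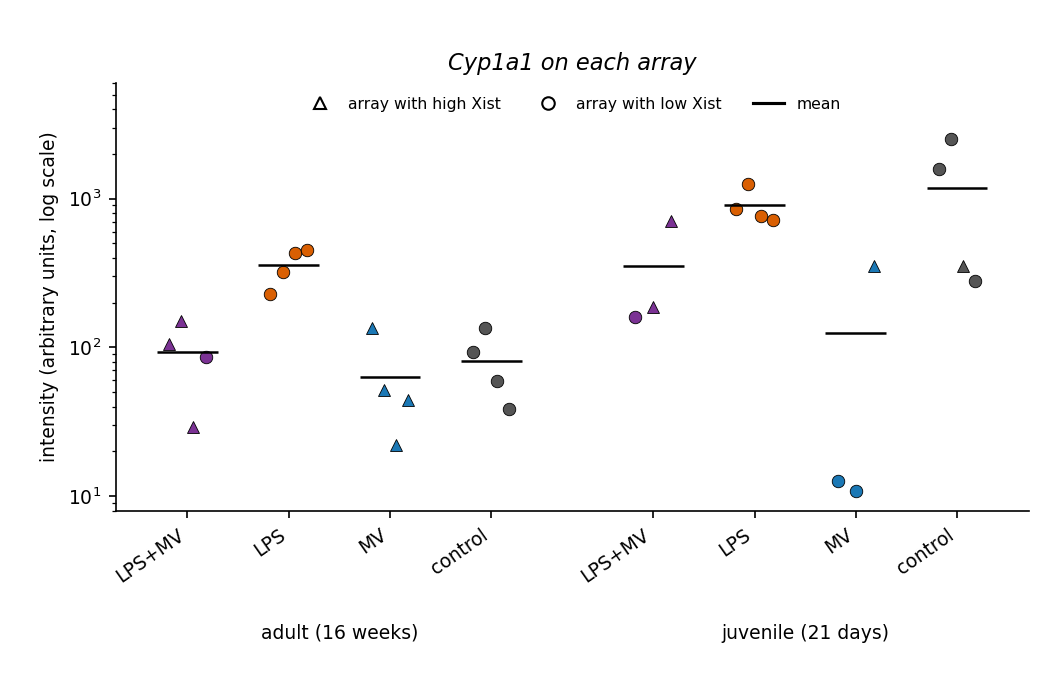
Intensity of Cyp1a1 on each array (arbitrary units, log axis), with triangles for arrays with high Xist and lines for group means of intensity. The adult controls sit at 38.5 to 134, below the juvenile controls at 279 to 2516, and 2 juvenile MV arrays sit at 10.9 and 12.6.

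Cyp1a1 was lower in ventilated juveniles. Juvenile MV lungs had 12.6, 10.9 and 351, against 1578, 2516, 353 and 279 in juvenile control lungs. On 2 of the 3 ventilated arrays Cyp1a1 lay below the array median, while replicate 3 lay among the controls. The fold change was -3.21 ± 0.66 (SE, adjusted p = 0.00295), and with 1 added to the intensity instead of 32 it was -4.36 (adjusted p = 0.00215). Replicate 3 also had high Hsph1 and high Xist. Without it the fold change was -4.26 (adjusted p = 0.00032), and on the arrays without high Xist it was -4.63 ± 0.57 (adjusted p = 0.000307). The call rests on the spread shared by all 8 groups: with the 2 groups alone the adjusted p was 0.11, and the exact permutation test gave p = 0.114, where 3 against 4 animals allow no less than 0.0571. In adults, MV lungs had 135, 51.9, 22.2 and 44.1 and overlapped the controls (-0.31 ± 0.61, adjusted p = 0.738). The adult response minus the juvenile response was 2.91 ± 0.90 and missed the threshold (adjusted p = 0.0524, and 0.000329 to 0.233 over 24 alternatives, of which 6 passed). It passed without juvenile control replicate 3 (3.28, adjusted p = 0.0361) or 4 (3.38, adjusted p = 0.0184) and without juvenile MV replicate 3 (3.95, adjusted p = 0.00471).

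Cyp1a1 was higher in adults given LPS without ventilation. Adult LPS lungs had 228, 319, 431 and 451, against 93.8, 134, 59.7 and 38.5 in adult control lungs, with no overlap. The fold change was 1.81 ± 0.61 (SE, adjusted p = 0.0221), or 3.50-fold. It did not pass without control replicate 4 (1.60, adjusted p = 0.0663), LPS replicate 3 (1.71, adjusted p = 0.0538) or LPS replicate 4 (1.69, adjusted p = 0.054). The exact permutation test gave p = 0.0286 here too, adjusted p = 0.1. In juveniles, LPS gave 858, 1257, 761 and 722, inside the range of the juvenile controls (0.12 ± 0.61, adjusted p = 0.918). The response to LPS was not shown to differ between the ages (1.69 ± 0.87, adjusted p = 0.318).

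In adults given LPS and then ventilated, Cyp1a1 overlapped the controls. Adult LPS+MV lungs had 105, 152, 29.3 and 86.5, which is 0.11 ± 0.61 against control (adjusted p = 0.909). All of them lay below all adult LPS lungs, a separation shared by 16.4% of all genes, but LPS+MV against LPS did not pass (-1.70 ± 0.61, adjusted p = 0.0874), though it did with these groups alone in the fit (adjusted p = 0.0112). In that comparison limma called 0 of the 5 genes, against 7.08% of all genes, and 2 had an unadjusted p below 0.05. Juvenile LPS+MV lungs had 161, 188 and 707, also below all juvenile LPS lungs, and did not pass against LPS (-1.53 ± 0.66, adjusted p = 0.121), control (-1.41 ± 0.66, adjusted p = 0.108) or MV (1.81 ± 0.71, adjusted p = 0.0882). With the juvenile LPS+MV and LPS groups alone, their difference passed (adjusted p = 0.0387). The highest LPS+MV lung, replicate 3, is the array with high Hsph1. Without it, LPS+MV against control was -2.02 (adjusted p = 0.0388), and without control replicate 4 it was -1.89 (adjusted p = 0.0317). Without juvenile MV replicate 3, LPS+MV against MV was 2.85 (adjusted p = 0.00337). High Xist was found on 3 of 4 adult and 2 of 3 juvenile LPS+MV arrays, and on no LPS array of either age. The LPS+MV and LPS groups thus also differed in this.

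Cyp1b1, the extrahepatic member of the family, was the opposite of Cyp1a1 in the controls. All its values come from the probe set at a mean intensity of 66.0, as those at 14.1 and 9.76 did not pass the filter. In untreated lungs it was higher in adults, at 78.8, 68.5, 51.8 and 75.7, against 42.2, 38.2, 50.1 and 53.0 in juveniles, and the ranges met at adult replicate 3 and juvenile replicate 4. The fold change was 0.37 ± 0.09 (SE, adjusted p = 0.00423). With MV the difference was 0.65 ± 0.10 (adjusted p = 2.46e-05), with 78.2, 84.0, 63.1 and 71.1 in adults, against 38.2, 37.5 and 31.3 in juveniles. With LPS it did not pass (0.13 ± 0.09, adjusted p = 0.372), nor with LPS+MV (0.27 ± 0.10, adjusted p = 0.0804), which passed without adult LPS+MV replicate 1 (0.33, adjusted p = 0.0321).

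Cyp1b1 was higher in juveniles given LPS without ventilation. Juvenile LPS lungs had 71.9, 74.9, 76.4 and 80.6, all above the 42.2, 38.2, 50.1 and 53.0 of juvenile control lungs. The fold change was 0.47 ± 0.09 (SE, adjusted p = 0.000336), or 1.39-fold, and it passed under all 18 alternatives. In adult LPS lungs it was 88.3, 79.7, 84.4 and 93.0, just above the control maximum of 78.8, and the fold change of 0.24 ± 0.09 (adjusted p = 0.0439) passed under 10 of 18 alternatives. Left out in turn, control replicate 3 (0.15, adjusted p = 0.204), control replicate 2 (0.0758) and LPS replicates 1, 3 and 4 (0.0824, 0.0658 and 0.107) each ended the call. Ventilation after LPS gave 50.1, 66.3 and 53.2 in juveniles, below all juvenile LPS lungs (-0.29 ± 0.10, adjusted p = 0.0492) and above all juvenile MV lungs (0.39 ± 0.11, adjusted p = 0.0134). The fall against LPS was at the threshold: it passed under 6 of 16 alternatives, with adjusted p of 0.0213 to 0.181. Leaving out any LPS replicate, or LPS+MV replicate 1 or 3, ended it, with fold changes of -0.31 to -0.24. A term for high Xist ended it too (-0.33, adjusted p = 0.074). The difference from MV was lost without LPS+MV replicate 2 (0.31, adjusted p = 0.0916) or MV replicate 3 (0.34, adjusted p = 0.0541). Juvenile MV lungs lay just under the controls, at 31.3 to 38.2 against 38.2 to 53.0 (-0.20 ± 0.10, adjusted p = 0.209), and adult LPS+MV and MV lungs overlapped theirs.

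**Figure D4:**
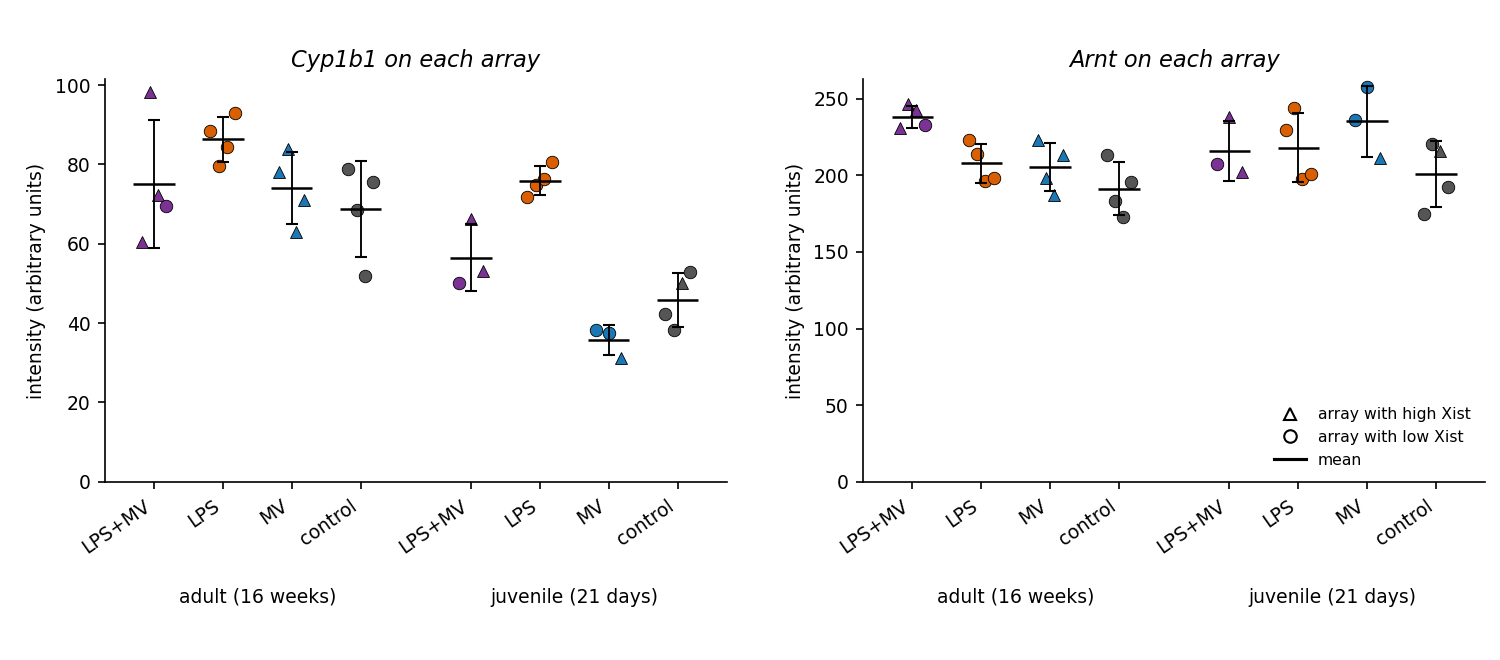
Intensity (arbitrary units, axis from 0) of Cyp1b1 and Arnt on each array, with the group mean, bars for the standard deviation and triangles for arrays with high Xist. Cyp1b1 lies at 71.9 to 80.6 in juvenile LPS, above the 38.2 to 53.0 of juvenile controls, and Arnt lies at 231 to 246 in adult LPS+MV, above the 173 to 213 of adult controls.

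Tiparp was higher in adults after all 3 treatments. Its intensity was 709, 596, 691.5 and 651 in adult LPS+MV lungs, 657, 529.6, 552 and 862 in adult LPS lungs and 444, 509.7, 353 and 441 in adult MV lungs, against 315, 348, 280.4 and 296 in adult control lungs. No treated adult overlapped the controls, and MV lungs lay below the LPS and LPS+MV lungs. Tiparp rose by 1.02 ± 0.14 (SE, adjusted p = 2.58e-06) with LPS+MV, 0.97 ± 0.14 (adjusted p = 7.09e-06) with LPS and 0.45 ± 0.14 (adjusted p = 0.0195) with MV. The first 2 passed under every alternative and on both other probe sets of the gene. The MV call did not pass without control replicate 3 (0.41, adjusted p = 0.0579), without MV replicate 2 (0.38, adjusted p = 0.0696), with a term for high Xist (0.38, adjusted p = 0.196) or on the other probe sets (0.34 and 0.23). LPS+MV passed against MV (0.57 ± 0.14, adjusted p = 0.00532, the only 1 of the 5 genes to do so, against 17.4% of all genes) and not against LPS (0.05 ± 0.14, adjusted p = 0.887).

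In juveniles Tiparp passed with LPS+MV. Juvenile LPS+MV lungs had 472, 513 and 810.1, juvenile LPS lungs 431, 439, 399.7 and 372 and juvenile MV lungs 366, 330.3 and 387, against 312, 365, 303 and 462 in juvenile control lungs. All 3 LPS+MV lungs lay above every other juvenile lung. Neutrophil markers, whose part was not tested, summed to 14780 to 15400 in juvenile LPS+MV lungs, against 892.7 to 3872 in juvenile controls, and 5 of 5 were higher. Against control the fold change was 0.66 ± 0.16 (SE, adjusted p = 0.00185), and it passed under all 16 alternatives. LPS (0.19 ± 0.14, adjusted p = 0.392) and MV (0.02 ± 0.16, adjusted p = 0.968) did not pass. On the probe set at a mean of 208, MV gave 0.54 ± 0.20 (adjusted p = 0.0754), with 194 to 245 in MV lungs against 123 to 178 in controls. On the probe set at a mean of 153, MV gave 0.17 ± 0.17 (adjusted p = 0.616). LPS+MV also passed against LPS (0.47 ± 0.16, adjusted p = 0.0387) and MV (0.65 ± 0.17, adjusted p = 0.00814), but without LPS+MV replicate 3, the array with high Hsph1, these were 0.25 (adjusted p = 0.343) and 0.42 (adjusted p = 0.101). The difference from MV did not pass on the other probe sets (adjusted p of 0.0984 and 0.208). The difference from LPS was also lost without LPS replicate 1, 3 or 4 (adjusted p of 0.0525, 0.0789 and 0.0906). With a term for high Xist it did not pass either (0.43, adjusted p = 0.135). With all arrays it passed on both other probe sets, at 0.62 (adjusted p = 0.0148) and 1.12 (adjusted p = 0.000294). With LPS, adult lungs lay above juvenile lungs on every array (0.60 ± 0.14, adjusted p = 0.00424). The adult response to LPS minus the juvenile response was 0.79 ± 0.21 (adjusted p = 0.0284), and it was lost on leaving out replicate 3 (0.74, adjusted p = 0.062) or replicate 4 of the adult controls (0.77, adjusted p = 0.0517), adult LPS replicate 4 (0.65, adjusted p = 0.0721) or juvenile LPS replicate 4 (0.74, adjusted p = 0.0576), and on the probe set at a mean of 208 (0.76, adjusted p = 0.114).

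In the order of group means over the 8 groups, Ahr ran from adult control at the top to adult LPS+MV at the bottom, and Tiparp from adult LPS+MV to adult control. Each group of Ahr, Arnt and Tiparp overlapped the next in order. Cyp1a1 ran from juvenile LPS, juvenile control, adult LPS and juvenile LPS+MV to adult LPS+MV, adult control, juvenile MV and adult MV, with a gap between neighbours between juvenile LPS+MV and adult LPS+MV only. Cyp1b1 ran from adult LPS to juvenile MV. Its only gap, a very narrow one, lay between juvenile control (lowest array 38.17) and juvenile MV (highest array 38.16), which did not pass. In juveniles the interaction of LPS and MV passed for 0 of the 5 genes in limma, against 0.756% of all genes, with 2 at an unadjusted p below 0.05.

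The genes around the pathway were taken from 4 lists, of which 14 members could be tested. Of 7 tested members of the ARNT family and its coactivators, 1 rose and 3 fell in adult LPS+MV, 1 rose and 1 fell in adult LPS, and 1 rose in adult MV, where 42.1%, 36% and 31.5% of all genes passed. In juveniles 1 rose and 1 fell in LPS+MV, 1 rose and 1 fell in LPS, and 2 rose in MV, against 31.3%, 22.9% and 10.9% of all genes. The medians of these 7 genes were -0.20 to 0.00 over the 6 comparisons, where the medians of all genes were -0.06 to -0.02. The gene that rose in all 6 was Hif1a, the oxygen-sensitive factor that also pairs with ARNT. It had 1675, 1648, 1854 and 2015 in adult LPS+MV lungs, 1527, 1451, 1482 and 1533 in adult LPS lungs and 1005, 907, 989.8 and 942 in adult MV lungs, against 678, 576, 547 and 571 in adult control lungs, with no overlap. The fold changes were 1.55, 1.30 and 0.67 in adults and 1.19, 0.85 and 0.45 in juvenile LPS+MV, LPS and MV, with adjusted p no higher than 0.00233. With only juvenile MV and control in the fit, the adjusted p of the last was 0.0792. In adult LPS+MV, Epas1, another hypoxia-inducible factor, fell by 0.23 (adjusted p = 0.0343) and Hif3a, a related factor, fell by 0.29 (adjusted p = 0.0426), passing under 11 and 8 of 17 alternatives. Epas1 was lost without control replicate 2, 3 or 4 or LPS+MV replicate 2 (adjusted p of 0.0597 to 0.1), and Hif3a without control replicate 3 or 4 or LPS+MV replicate 2, 3 or 4 (0.0723 to 0.139). Ncoa2, a coactivator, rose by 0.44 in juvenile MV (adjusted p = 0.0179) and was lost without MV replicate 2 (0.056) or 3 (0.0722). Ncoa1, its relative, fell in LPS+MV (-0.64 ± 0.12, adjusted p = 0.000139) and LPS (-0.51 ± 0.12, adjusted p = 0.00175) in adults. In juveniles it fell by 0.40 in LPS+MV (adjusted p = 0.0226) and 0.42 in LPS (adjusted p = 0.0129), and these calls were lost without LPS+MV replicate 1 or 2 or control replicate 1 or 2, and without LPS replicate 4.

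Of 3 tested members of the wider battery of receptor-regulated genes, Nfe2l2, the factor that directs the antioxidant response, was higher in all 6 comparisons. It rose by 1.26 ± 0.12, 1.08 ± 0.12 and 0.55 ± 0.12 in adult LPS+MV, LPS and MV (adjusted p of 1.57e-09, 3.39e-08 and 0.000746) and by 1.27 ± 0.12, 0.72 ± 0.12 and 0.44 ± 0.12 in juvenile LPS+MV, LPS and MV (adjusted p of 7.78e-09, 2.77e-05 and 0.0232). The juvenile MV value was 0.24 (adjusted p = 0.241) without MV replicate 3 and 0.38 (adjusted p = 0.0644) without control replicate 3. Nqo1, a quinone reductase, had 33.5, 26.7, 25.3 and 31.2 in adult MV lungs, against 44.8, 51.8, 35.2 and 38.4 in adult controls (-0.28 ± 0.10, adjusted p = 0.024), and leaving out control replicate 1 or 2 or MV replicate 2 or 3 ended the call. Aldh3a1, an aldehyde dehydrogenase of the battery, passed in no treatment against control, but it was higher in adult than juvenile controls, at 145.7, 161.5, 127.5 and 184 against 50.4, 58.6, 45.7 and 67.7 (1.09 ± 0.28, adjusted p = 0.0049), the reverse of Cyp1a1 in the same animals. Juvenile MV lungs, at 23.7, 38.2 and 30.4, lay below all juvenile controls, a separation shared by 19.2% of all genes. Adult LPS+MV replicate 2 measured 541.7, against 102.3, 194.9 and 112.5 on the other arrays of its group. Medians of these 3 genes were -0.28 to 0.27 in the 6 comparisons.

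Of the enzymes that make or remove tryptophan-derived ligands, 3 of 8 could be tested. Kmo, which hydroxylates kynurenine, rose in adult LPS+MV (0.44 ± 0.06, adjusted p = 1.36e-06), adult LPS (0.26 ± 0.06, adjusted p = 0.00118) and juvenile LPS+MV (0.22 ± 0.06, adjusted p = 0.0106). Ido1, which starts the pathway, was dim, with 17.9, 32.7, 26.3 and 31.0 in adult LPS lungs, against 17.1, 16.6, 14.7 and 17.6 in adult controls (0.28 ± 0.08, adjusted p = 0.0113), and without LPS replicate 2 it did not pass (0.23, adjusted p = 0.0514). Afmid passed in none of the 6. The medians of the 3 were 0.00 to 0.26. Hsp90aa1, the chaperone that holds the receptor in the cytosol and the only tested member of its list of 4, passed in none, with values of 0.06 to 0.65. Adult MV lungs, at 3446 to 4775, and adult LPS lungs, at 3436 to 4196, lay above adult controls, at 2274 to 3027. Such a separation was seen for 30.5% and 34.6% of all genes. Adult LPS+MV lungs, at 2896 to 4260, overlapped the controls. In the fit on arrays without high Xist, adult LPS passed (0.45 ± 0.14, adjusted p = 0.0171). The value in juvenile MV, 0.65, was -0.05 without replicate 3, where Hsp90aa1 measured 9620, against 2453 and 2056 on the other juvenile MV arrays, and 1.06 without replicate 2 (adjusted p = 0.0327).

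**Figure D5:**
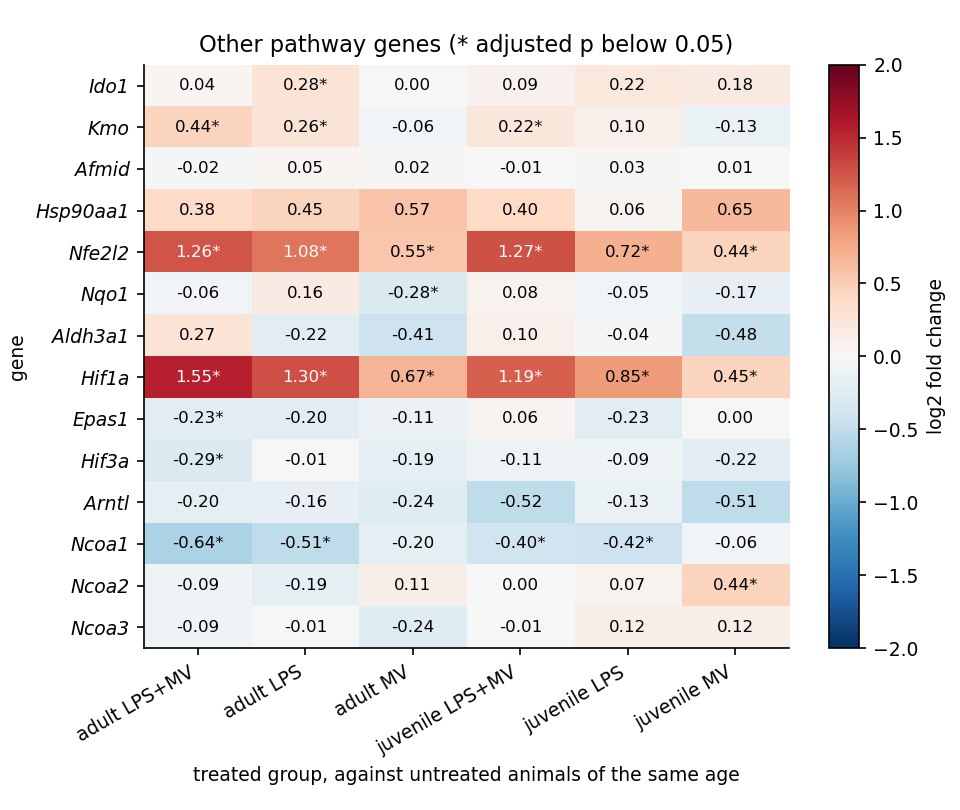
Log2 fold change of intensity + 32 (colour and printed value) of 14 other pathway genes (rows) in each treated group against untreated animals of the same age (columns), with stars for adjusted p below 0.05. Hif1a and Nfe2l2 are starred in all 6 columns.

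The genes whose pattern over the 30 arrays was closest to each member's are given as a description, since these arrays share the group differences. For Ahr they were Meox2 (Pearson r = 0.921), Klhl20 (0.909) and Fzd7 (0.904), and the same genes had r of 0.733, 0.851 and 0.728 once group means were removed. For Tiparp they were Csrnp1 (0.937), Trip10 (0.916) and Sphk1 (0.909), with 0.797, 0.778 and 0.739 within groups. For Cyp1b1 they were A4galt (0.858), Chmp4c (0.855) and Sppl2a (0.854), with 0.492, 0.612 and 0.466 within groups. Those of Cyp1a1 were Bud31 (0.820), Trp53inp2 (0.807) and Septin2 (0.780), with 0.547, 0.416 and 0.255 within groups, and those of Arnt were Plaa (0.752), Rbm18 (0.738) and Smad2 (0.730). No member was among the 3 closest genes of another member.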

How the data were processed

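The values are intensity per probe set on a linear scale, as the authors deposited them in a series matrix. MAS5 is the tool that the submitters' processing notes name, with no version or role, and how arrays were normalized is not given in the sources used here. Samples were grouped by the age and treatment in the labels. Of 45037 probe sets, 34945 carried 1 gene symbol in the platform annotation, 932 several and 9160 were not listed. Probe sets above their array's median on at least 3 arrays were kept (24825), and log2(intensity + 32) was fitted with limma 3.58.1 in R 4.3.3 (lmFit, eBayes with trend, 8 group means, 22 residual degrees of freedom), over 19 comparisons. The model was tested on simulated data. Exact permutation tests used SciPy 1.17.1. No detection calls or counts were used, so the number of arrays limits the precision. All 6 genes are named, with those of their probe sets that were kept. A further probe set of Arnt, at a mean intensity of 17.2, and those of Cyp1b1 at 14.1 and 9.76 did not pass the filter. Of the other lists, genes that passed are named, up to the 4 smallest p. For likeness, the 3 genes with the highest r are named. The genes, the 4 pathway lists and the 13 lists of cell type markers were chosen with earlier results of these data known. The fits were repeated with other settings: a smaller pseudocount (1), quantile-normalized intensities, all probe sets without the filter, gene means over probe sets, no trend, array weights, the compared groups alone, the replicate number as a block, a term for high Xist, other probe sets, and each array left out. Fits on arrays without high Xist, and the permutation tests of Cyp1a1, were chosen after seeing the data.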

Additional observations from a re-analysis of the deposited data

Results flagged for a closer look

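Ahr in juvenile controls had an array far from the other 3: replicate 4 measured 679, against 957 to 979.7, and its gap to the nearest took 0.935 of the range of the group on the log2 scale, above the share allowed for 4 values. It was the only 1 among 30 groups of 4 arrays looked at, and chance gives such a gap in about 1 in 20 groups.

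The combination of LPS and MV in adults changed Ahr less than the sum of both changes: the interaction was 0.72 (adjusted p = 0.0131). The response of Ahr differed between the ages with MV and with LPS. The adult change minus the juvenile change was -0.91 (adjusted p = 0.00427) with MV and -0.98 (adjusted p = 0.00142) with LPS. With a term for high Xist the MV difference did not pass (-0.71, adjusted p = 0.056). These values come from the brighter probe set of Ahr. On the dim one, the interaction (adjusted p = 0.372) and the age differences with MV (0.562) and LPS (0.275) did not pass. The response of Tiparp to LPS differed between the ages by 0.79 (adjusted p = 0.0284). This was lost without adult control replicate 3 or 4, adult LPS replicate 4 or juvenile LPS replicate 4 (adjusted p of 0.0517 to 0.0721). On the Tiparp probe set at a mean of 208 it did not pass (adjusted p = 0.114).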

How the results depend on the processing

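Of 1912 refits of the 5 tested genes, 1797 kept their side of the threshold with no call turned round, 72 lost a call, 42 gained 1 and 1 reversed. These include 8 exact permutation tests of Cyp1a1, judged by their unadjusted p, of which 6 were counted as kept and 2 as gained. By adjusted p, at 0.1 or more, none of the 8 passed. Among them, 86 values that passed in neither fit changed sign. The number of genes that passed moved by over 1.5 times in these comparisons, and smaller moves are not listed. With array weights it was 2 in adult against juvenile LPS+MV (0 in the model used), 4 in juvenile LPS+MV against control (2), 1 in adult LPS+MV against LPS (0), 2 in adult LPS+MV against MV (1), 3 in the age difference of the MV response (1) and 3 in that of the LPS+MV response (0). With only the groups compared it was 0 in juvenile MV (1) and 1 in juvenile LPS+MV (2) against control, 1 in juvenile LPS+MV against MV (3) and 1 in adult LPS+MV against LPS (0). With a term for high Xist it was 1 in juvenile LPS+MV (2) and 1 in adult MV (2) against control, 0 in juvenile LPS+MV against LPS (3) and 0 in the age difference of the MV response (1). With the mean over probe sets it was 2 in juvenile MV (1) and 1 in adult MV (2) against control, and 1 in adult LPS+MV against LPS (0). With no filter it was 1 in juvenile LPS+MV against LPS (3) and 2 in the adult interaction of LPS and MV (1), where the added gene was Ahrr, at intensities below the array medians. In adult LPS against control, no filter let Ahrr in (0.06, adjusted p = 0.00527) and lost Cyp1b1 (adjusted p = 0.0615). With a pseudocount of 1 it was 2 in the age difference of the MV response (1). With each array left out in turn, it was 0 to 1 in adult against juvenile LPS+MV, 1 to 3 in juvenile LPS+MV against control, 0 to 3 against LPS and 1 to 3 against MV, 1 to 2 in adult MV and 2 to 4 in adult LPS against control, 1 to 2 in the age differences of the MV and of the LPS response, and 0 to 1 in that of the LPS+MV response. The values that reversed were those of 2 genes: Arnt in juvenile LPS+MV against LPS was 0.29 on the probe set at a mean of 53.0 (-0.01 in the model used), and Arntl in juvenile LPS+MV against MV was 0.63 with array weights (-0.01). Causes were not tested.

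Replicate numbers were not taken to pair the animals, since the labels name no pairing. Deviations from the group means correlated above 0.1 in 37 of 99 same-numbered pairs (median r 0.03), against 46 of 294 differently numbered pairs (median r -0.01). These values do not decide whether animals of the same number shared a batch. As a hint from the data, 15 of 30 arrays correlated best with their own number. With the replicate block 2 genes passed in the age difference of the MV response (1 without it), as Cyp1a1 entered at 3.03 (adjusted p = 0.0492), and Cyp1b1 in juvenile LPS+MV against LPS was -0.27 (adjusted p = 0.0595). No other call of the 5 genes changed under the replicate block. Dim probe sets limit what Ahrr and Cyp1a1 in ventilated juveniles can show. Where nothing says otherwise, p-values measure the spread between these animals, and 3 or 4 arrays a group limit their precision.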

Other observations

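Between adult and juvenile controls, where 25.2% of all genes passed, the cell type markers counted as follows. Markers of club cells summed to 51840 to 56130 in adult controls, against 39600 to 46310 in juvenile controls, with 3 of 5 higher in adults, and ciliated markers had 6 of 6 higher in adults. B cell markers had 4 of 4, T and NK markers 2 of 4, macrophage markers 2 of 6, neutrophil markers 5 of 5, alveolar type 2 markers 2 of 5 and alveolar type 1 markers 2 of 6 higher in adult than in juvenile controls. Fibroblast markers had 1 of 6 higher and 4 of 6 lower, smooth muscle and pericyte markers 2 of 7 lower, red cell markers 2 of 2 lower, endothelial markers 1 of 8 lower and none of the 6 cardiac muscle markers passed. The summed cardiac markers were 3957 to 17080 over all arrays.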
